A study of Mus musculus with 14 samples.

Results

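The chromatin regions described here are those listed as differing in occupancy by G9a, a histone methyltransferase, between sham and pressure-loaded mouse hearts. All lines of the G9a table on chromosomes 1 to 19, X and Y were taken as members. They numbered 388424, of 1186058 lines in the 3 tables of the series. The other tables hold regions for H3K9me2 (245088 on these chromosomes) and H3K27me3 (552542). The cells were cardiomyocyte-enriched fractions of C57BL/6J mouse hearts. One group had undergone transverse aortic constriction (TAC), a surgical narrowing of the aorta that loads the left ventricle, for 1 week, and the other was sham, labelled as untreated. G9a was precipitated with a Sigma antibody from 2 biological replicates of each condition, among 14 libraries in all, and both groups share strain, cell preparation and library kit. The labels give no sex, age or pooling of animals.

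G9a, the product of Ehmt2, mono- and dimethylates lysine 9 of histone H3, mostly as a heterodimer with GLP, the product of Ehmt1. The zinc finger protein Wiz helps to hold the dimer on chromatin. H3K9me2 is associated with silent genes in euchromatin, and G9a is known for silencing germline and lineage-inappropriate genes and for contacts with Polycomb repressive complex 2, which places H3K27me3. The comparison asks where the enzyme sits differently in the hypertrophied heart. Each line of the table gives a region and 4 whole-number values, as 2 pairs of libraries. The table does not say which pair is sham, so each difference is stated by pair, and no reading by condition can be made from the table alone.

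Promoters overlapped by the listed regions came from sequence classes that differ widely in CpG content, and 8 are printed to show that range. They are the 4 per direction that ranked highest by p in the authors' deposited table among separated regions with a mean value of at least 100. A region is called separated where the lower value of one pair exceeds the higher value of the other. There were 752 such genes for the second pair and 194 for the first. Each line gives the 150 bases before the RefSeq start site, 5′ to 3′ on the gene's strand, with CpG dinucleotides in capitals (GRCm38.p6, the files' build). Regions higher in the second pair covered those of Agxt (chr1:93135090-93135239, plus strand), C1qc (chr4:136892915-136893064, minus), Gm6588 (chr5:112449276-112449425, plus) and Dnmt3b (chr2:153649299-153649448, plus).
Agxt: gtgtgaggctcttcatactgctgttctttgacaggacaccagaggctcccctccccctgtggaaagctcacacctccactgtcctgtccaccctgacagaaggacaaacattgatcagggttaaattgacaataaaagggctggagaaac
C1qc: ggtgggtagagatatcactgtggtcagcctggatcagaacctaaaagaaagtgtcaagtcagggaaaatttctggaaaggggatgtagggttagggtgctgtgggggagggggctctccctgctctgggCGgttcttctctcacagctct
Gm6588: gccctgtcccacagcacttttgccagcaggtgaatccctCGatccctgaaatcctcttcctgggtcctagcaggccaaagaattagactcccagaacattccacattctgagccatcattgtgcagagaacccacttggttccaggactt
Dnmt3b: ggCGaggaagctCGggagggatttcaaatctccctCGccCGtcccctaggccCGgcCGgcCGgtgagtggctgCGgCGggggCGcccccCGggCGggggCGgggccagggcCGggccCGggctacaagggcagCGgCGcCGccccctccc
Regions higher in the first pair covered those of Mucl2 (chr15:103899313-103899462, minus strand), Dsel (chr1:111864919-111865068, minus), Rapgef2 (chr3:79145876-79146025, minus) and Olfr307 (chr7:86336395-86336544, minus).
Mucl2: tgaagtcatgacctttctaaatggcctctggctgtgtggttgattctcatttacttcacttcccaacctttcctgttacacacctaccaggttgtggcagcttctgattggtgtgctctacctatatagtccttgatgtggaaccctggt
Dsel: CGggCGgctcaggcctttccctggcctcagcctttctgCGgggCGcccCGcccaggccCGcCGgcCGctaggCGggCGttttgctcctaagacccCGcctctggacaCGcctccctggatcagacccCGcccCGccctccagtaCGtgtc
Rapgef2: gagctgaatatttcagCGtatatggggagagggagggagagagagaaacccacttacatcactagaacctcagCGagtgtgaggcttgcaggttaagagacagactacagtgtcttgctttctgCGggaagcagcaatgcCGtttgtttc
Olfr307: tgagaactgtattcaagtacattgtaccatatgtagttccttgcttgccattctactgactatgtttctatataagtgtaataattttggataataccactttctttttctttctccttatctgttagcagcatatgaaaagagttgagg
The CpG count of the printed stretch ran from 0 (Agxt) to 18 (Dnmt3b) among the second-pair cases, and from 0 (Mucl2 and Olfr307) to 15 (Dsel) among the first-pair cases. Thus CpG-poor and CpG-rich promoters stood at the top of both directions. At Dnmt3b, which encodes a de novo DNA methyltransferase, the region of 3450 bp read 399 and 615 in the libraries of the first pair, against 2797 and 901 in those of the second. At Dsel, which encodes an epimerase of dermatan sulfate synthesis, the values were 284 and 376 against 21 and 98. Rapgef2, a Rap guanine nucleotide exchange factor gene, had 404 and 422 against 13 and 192. The pairs did not overlap at any of these genes, as the rule required, but library 1 of the second pair lay far from its partner at all 3.

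Of the 388424 regions, 173035 (44.5%) were higher in the second pair and 215389 in the first. Among the 147639 regions with a mean value of at least 100 the lean was the other way, with 59.8% higher in the second pair. The second-pair regions covered 159 Mb and the first-pair regions 135 Mb. The log2 difference of pair means, with 1 added to each mean, had a median of 1.01 in the former and -1.08 in the latter. Differences past a log2 value of 2 in either sense were seen at 8704 second-pair regions (5.03%) and at 21110 first-pair regions (9.80%). The pairs were separated at 237913 regions (61.3%), the share against which counts of separated members are read below. This share describes regions that the authors had already selected, at p of at most 0.00998 in the authors' deposited table.

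The spread within the pairs was of similar size to the difference between them. The median absolute log2 difference was 0.72 between the libraries of the first pair and 1.08 between those of the second, against 1.05 between the pair means. Library 1 of the second pair was unlike the rest, with 9.34% zeros against 0.163% to 1.40% in the others and a median of 52 against 77, 94 and 90. In first-pair regions its median was 20, against 62 in its partner, and 16.7% of its values were 0. In second-pair regions of 2000 bp or more it was instead the highest of all, with a median of 751 against 547. Its part in the results below was not tested. Values without it are given for the shares by width, density, gene number, gene length, position, promoter CpG content and marks, and for the gene lists. Summed values did not separate the pairs (exact permutation test, two-sided, p = 0.667, where 2 against 2 cannot go below 0.33).

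No region passed limma with Benjamini-Hochberg adjustment over all 388424 regions (0 called, 0% in either direction). The smallest adjusted p was 0.471. At an unadjusted p under 0.05, limma listed 26030 regions (6.70%), 17063 of them higher in the second pair and 8967 in the first. Which direction had more such regions depended on the setting. Without the mean-variance trend there were 4918 and 10368, without library 1 of the second pair 8023 and 15107, and without library 2 of that pair 11744 and 112031. Directions below are therefore descriptions of these 4 libraries, and the p-values named as the authors' are theirs.

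**Figure D1:**
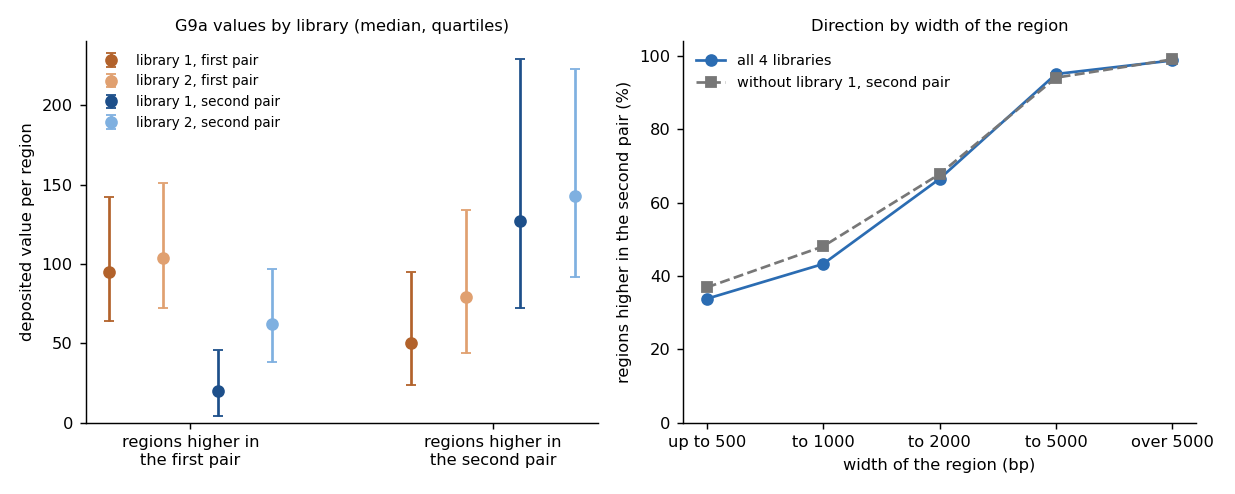
Left, deposited G9a values per region in each library (points, medians; bars, quartiles), for regions higher in either pair; library 1 of the second pair has a median of 20 in first-pair regions. Right, percent of regions higher in the second pair by width of the region in bp, with all 4 libraries and without library 1 of the second pair; the share goes from 33.8% to 98.8%.

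Wide G9a regions were almost all higher in the second pair. The share went from 33.8% of regions up to 500 bp through 43.3% (to 1000 bp) and 66.5% (to 2000 bp) to 95.1% (to 5000 bp). Of the 655 regions over 5000 bp, 647 (98.8%) were higher in the second pair and 8 in the first. Without library 1 of the second pair the 5 shares were 36.9%, 48.1%, 67.8%, 94.1% and 99.1%, in the same order. The listed regions and their widths stayed as deposited, so the part of that library in them was not tested. Of the 11713 G9a regions of 2000 bp or more, 11113 (94.9%) were higher in the second pair. The same share was 61.5% among 845 H3K9me2 regions and 82.5% among 48557 H3K27me3 regions of that width. The pairs are unnamed in each table, so the second pair need not be the same condition in all 3. The share also rose with the density of signal. In the quintile of regions with the lowest mean value per kb, 27.5% were higher in the second pair, and in the top quintile 70.4%. The shares were 31.9% and 69.4% with library 1 of the second pair left out of the direction. Density came from the same values as direction and kept that library, so the measures are not independent. No listed region had a mean below 105 per kb, so a width or density class is also a class of listed regions, not of the genome.

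The widest region of the table, 21700 bp inside Hmcn2 (chr2:31367751-31389450, mm10), read 2450 and 2913 in the libraries of the first pair, against 11453 and 5547 in those of the second. Hmcn2 encodes hemicentin 2, a large extracellular matrix protein. The log2 difference was 1.66 (limma 1.58 ± 1.02 SE, adjusted p = 0.471). A further Hmcn2 region of 9950 bp had 866 and 1633 against 5136 and 2616. Notch1, the receptor of a signalling pathway used in heart development, held a region of 14100 bp (chr2:26478101-26492200) with 1228 and 1529 against 5222 and 3320. Itpr3, an inositol trisphosphate receptor gene that releases calcium from internal stores, held one of 15350 bp (chr17:27092201-27107550) with 1776 and 2009 against 7740 and 3114. All 4 regions were named among separated ones, and library 1 of the second pair was the highest in each.

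Other wide second-pair regions lay in or near Rbfox3, Grm4 and Sez6l. Rbfox3, whose product is the neuronal splicing factor NeuN, held 10600 bp (chr11:118505101-118515700) with 798 and 1031 against 4375 and 2373, a log2 difference of 1.88. Grm4, a metabotropic glutamate receptor gene, had 1033 and 1377 against 4686 and 2623 over 9900 bp. Sez6l, a gene of neuronal membrane proteins, had 1971 and 2251 against 5888 and 4207 over 15400 bp. A region 13466 bp from Sez6l had 1373 and 2686 against 6418 and 3441 over 13600 bp. Without library 1 of the second pair the log2 differences were 1.37 at Rbfox3, 1.12 at Grm4 and 0.99 at Sez6l. These regions were separated, so the sign could not turn.

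**Figure D2:**
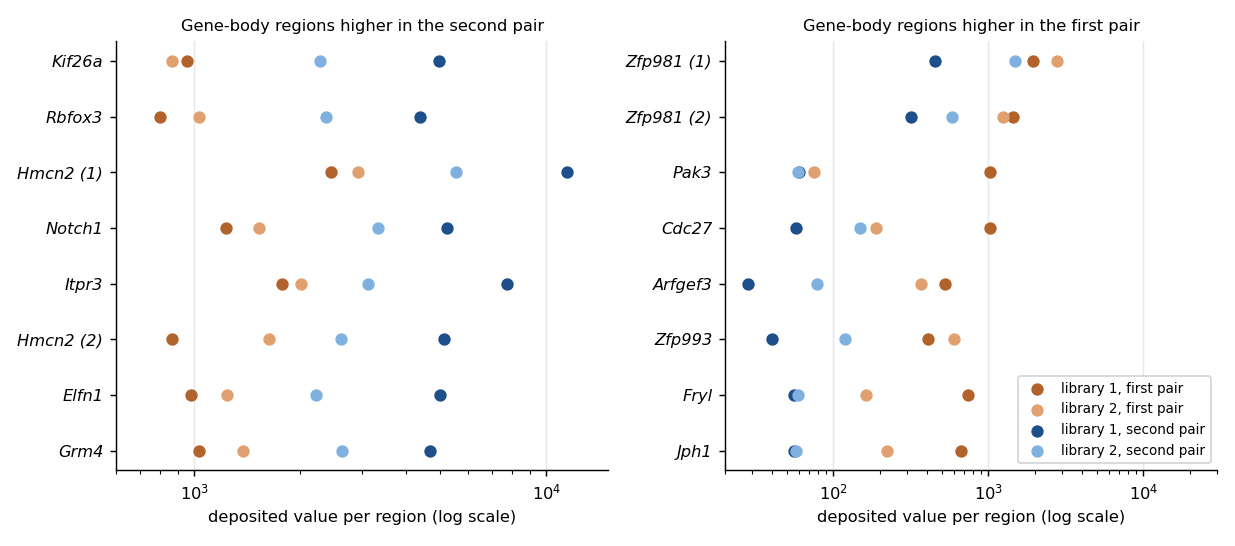
Deposited G9a values (log scale) of the 4 libraries at the 8 gene-body regions per direction ranked by p in the authors' deposited table; numbers in parentheses tell apart regions of the same gene. In the left panel library 1 of the second pair is the highest at all 8 genes' regions, and in the right panel Pak3, Cdc27, Fryl and Jph1 are high in library 1 of the first pair above all.

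Gene-body regions higher in the first pair were narrower, and several were high in a single library. Pak3, a p21-activated kinase gene on the X chromosome, had 1027 and 75 against 60 and 59 over 1150 bp (chrX:143581801-143582950). Cdc27, a subunit of the anaphase-promoting complex, had 1029 and 187 against 57 and 149. Jph1, the junctophilin gene of skeletal muscle triads, had 663 and 221 against 56 and 57. At Pak3 and Cdc27 library 2 of the first pair lay near the second pair, so the difference was largely that of library 1. At Jph1 both first-pair values were above the second pair, but library 1 was also well above its partner. The limma log2 difference at Pak3, a difference between mean log2 values, was -2.21 ± 1.06 SE (adjusted p = 0.471). The spread between libraries enters the SE and the p-value alone. Arfgef3 differed from this pattern, with 528 and 369 against 28 and 78 over 2000 bp (chr10:18649201-18651200) and a limma log2 difference of -3.21 ± 0.68 SE (adjusted p = 0.471). Over all first-pair regions with a mean of at least 100, library 1 was at least 3 times library 2 at 2.41%, and library 2 at least 3 times library 1 at 3.48%. The corresponding shares in second-pair regions were 3.57% and 4.49%.

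Of the 5 widest first-pair regions, 3 lay at or near zinc finger genes, 1 in a predicted gene and 1 far from any gene, which is given with the regions of that kind below. The widest spanned 7650 bp in a part of chromosome 4 where the gene table lists Zfp981 and Zfp993, with 1925 and 2759 against 455 and 1488. Over a further region of 3950 bp in the same bodies (chr4:146528601-146532550) the values were 1450 and 1232 against 316 and 582. At Gm5373, 7350 bp had 2322 and 3389 against 544 and 2553, so the pairs overlapped. At Zfp978, 7200 bp had 2642 and 3773 against 603 and 3391, and without library 1 of the second pair the log2 difference turned from -0.68 to 0.08. At 4287 bp from Zfp982, 6400 bp had 2292 and 3334 against 543 and 1715. The zinc finger genes of this stretch are close copies of each other, so reads may have been shared among them and values for single genes are uncertain.

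Far from genes, over 50 kb from any protein-coding gene, the leading second-pair regions were again wide. A pair of them lay 218721 and 90671 bp from Mn1, a transcriptional coregulator gene, with 864 and 1265 against 4903 and 2010, and with 1039 and 1295 against 3937 and 2420. A region 82870 bp from Unc5b, a netrin receptor gene, had 332 and 697 against 3243 and 1236, a log2 difference of 2.12. Regions near Foxl1 (62407 and 82957 bp away), a forkhead gene of gut mesenchyme, had 345 and 1263 against 2943 and 1973, and 485 and 840 against 3039 and 1284. Without library 1 of the second pair their log2 differences were 0.92 to 1.29. Their direction could not turn, since they were named among separated regions. Of the 8 leading first-pair regions far from genes, 5 were 1100 to 1450 bp wide. One lay 110382 bp from Gpd2 (chr2:57481101-57482250) with 707 and 234 against 4 and 8, and its limma log2 difference was -5.93 ± 1.13 SE (adjusted p = 0.471). Another lay 126660 bp from Gucy1a2, a soluble guanylate cyclase subunit gene, with 269 and 417 against 6 and 36. Both pairs of values were well apart there, unlike at a region 887048 bp from Epha7, where the first pair read 688 and 123 against 4 and 59. Among the 3 wider ones was a region of 6500 bp near the start of chromosome 16 (chr16:3253201-3259700), 332698 bp from Olfr161, with 1738 and 3173 against 244 and 1532.

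Direction followed the number of genes in the neighbourhood. In 1 Mb windows of chromosomes 1 to 19 that held at least 20 regions, the median share higher in the second pair was 22.0% in the 268 windows without a protein-coding gene. It was 26.1% with 1 to 2 genes, 35.6% with 3 to 5, 41.4% with 6 to 10, 50.3% with 11 to 20 and 53.7% in the 240 windows with over 20. The quartiles of neighbouring classes overlapped, and those of the gene-free windows (17.0% to 26.8%) lay below those of the windows with over 20 genes (40.3% to 61.1%). Without library 1 of the second pair the medians went from 27.9% to 56.8% in the same order. Among chromosomes 1 to 19, the share was lowest on chromosome 3 (35.4%) and highest on chromosome 11 (51.4%), which hold 6.15 and 13.2 protein-coding genes per Mb. Chromosomes did not follow gene number strictly: chromosome 7, with 14.0 genes per Mb, had 46.6%, and chromosomes 18 and 12, with 5.64 and 5.66, had 40.4% and 42.3%.

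**Figure D3:**
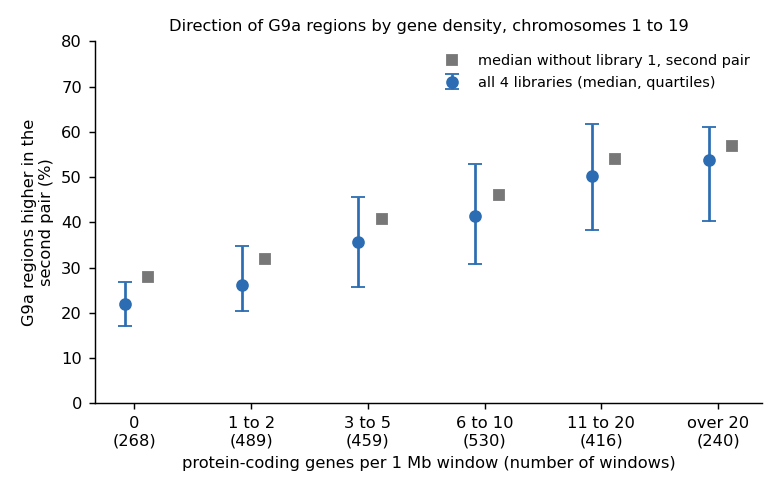
Percent of G9a regions higher in the second pair in 1 Mb windows of chromosomes 1 to 19, by the number of protein-coding genes in the window (points, medians; bars, quartiles; squares, medians without library 1 of the second pair). The median goes from 22.0% in windows with no gene to 53.7% in windows with over 20.

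Single stretches of the genome held regions of mostly one kind. The window over Macrod2 on chromosome 2 (141000001 to 142000000) held 89 regions, of which 81 were higher in the first pair. A window on chromosome 16 (83000001 to 84000000) that held no protein-coding gene had 88 of 94. In the opposite direction no window with at least 20 regions reached 90%. The highest share was 84.6%, 303 of 358 regions, on chromosome 7 (144000001 to 145000000) over Shank2, a postsynaptic scaffold gene, Cttn and Fgf3, Fgf4 and Fgf15. The window on chromosome 9 with Tle3 and Kif23 had 318 of 380. These high-share windows were chosen after their values were seen.

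The longer the gene, the more of its regions were higher in the first pair. The share higher in the second pair was 53.1% inside genes up to 10 kb, 47.9% from 10 to 50 kb, 42.9% from 50 to 200 kb and 34.8% above 200 kb. With library 1 of the second pair left out these were 58.9%, 53.1%, 48.0% and 40.4%, and without library 2 of that pair 43.2%, 42.1%, 38.3% and 30.4%, in the same order. Among the 10 genes with the most separated first-pair regions, Dlg2, a synaptic scaffold gene, held 204 first-pair and 38 second-pair regions. Lsamp and Cntnap2, genes of neuronal adhesion proteins, held 200 and 52, and 187 and 56. Macrod2 held 168 and 19, Nrxn3, a presynaptic adhesion gene, 155 and 42, and Rbfox1, a splicing factor gene, 149 and 69. Other long genes went the opposite way. Shank2 held 162 second-pair and 21 first-pair regions, Cdh23, a cadherin of hair cells, 137 and 18, Rbfox3 131 and 19, and Gabbr2, a GABA-B receptor subunit gene, 124 and 21. Kcnma1, the gene of the BK potassium channel, held 185 and 72. Asic2, an acid-sensing channel gene, was among the 10 genes with the most separated regions of either kind, with 222 and 165.

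By position, 31445 regions had their midpoint within 2500 bp of an end of a protein-coding gene, and 49.4% of these were higher in the second pair. In the rest of gene bodies it was 40.6% of 128949. Outside genes but within 50 kb of one it was 53.8% of 104205, and farther away 39.6% of 123825. Single libraries moved these shares, and near gene ends they turned the lean. Leaving out library 1 of the second pair, the 4 shares were 55.1%, 45.7%, 55.3% and 42.7%, and without library 2 of that pair 41.2%, 36.2%, 50.2% and 36.3%. The X chromosome was nearly empty, with 803 regions or 4.70 per Mb, against 134 to 189 per Mb on chromosomes 1 to 19, and Y held 51. The listed X regions had a median of 123 per kb, against 131 over all chromosomes. The animals' sex is not given, and which step left so few X regions was not tested. The X regions of Asmt, the last enzyme of melatonin synthesis (577 and 953 against 2993 and 1724 over 4250 bp), and of Pak3 above are therefore among few.

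Start sites lay in second-pair G9a regions about as often as positions far upstream, with a dip between. Of 21263 promoters of 17492 protein-coding genes with a RefSeq sequence (chromosome 18 and Y not included), the 300 bases from 250 before to 50 after the start overlapped a second-pair region at 2621 (12.3%) and a first-pair region at 1666 (7.84%). The start site itself lay in a second-pair region at 10.1%, against 7.98% at 1000 bp before and 8.63% at 1000 bp after it. At 10 kb upstream the value was 9.90% and at 10 kb downstream 7.67%. For first-pair regions the values at these 5 positions were 5.80%, 4.75%, 5.12%, 5.66% and 5.29%. Promoters with intermediate CpG content were overlapped most often by second-pair regions: 8.72% with 0 to 2 CpGs in 300 bases, 17.2% with 3 to 5, 20.1% with 6 to 10, 11.3% with 11 to 20 and 9.83% with 21 or more. For first-pair regions these were 8.90%, 9.69%, 10.4%, 7.94% and 5.44%. Without library 1 of the second pair, the second-pair shares were 9.35%, 17.8%, 21.7%, 13.1% and 11.1%. At CpG-rich start sites (21 or more) second-pair coverage went from 11.4% at 10 kb upstream to 5.62% at 2 kb downstream, while at CpG-poor ones it was 7.45% and 8.89%.

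**Figure D4:**
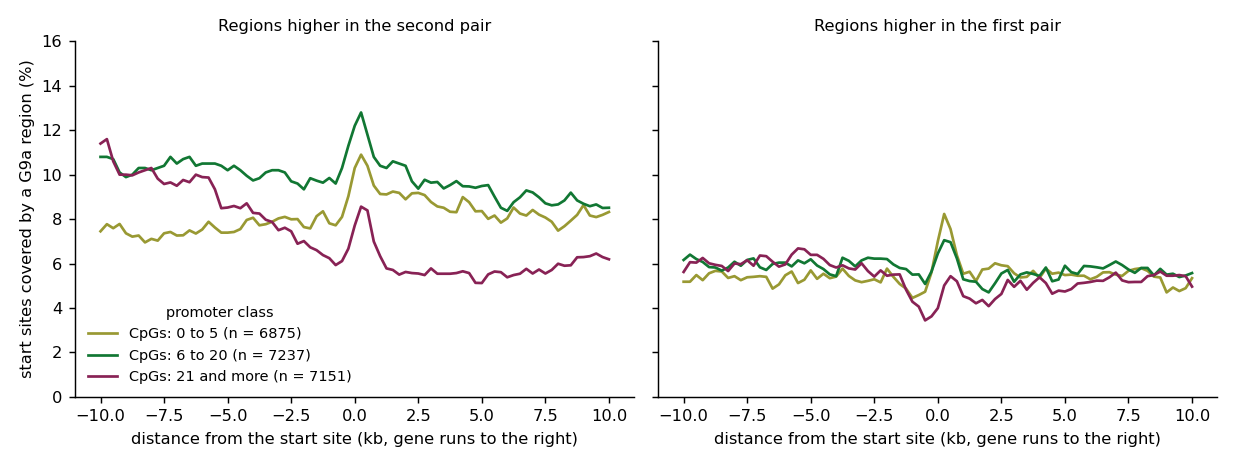
Percent of RefSeq start sites with a G9a region over each position, by distance in kb from the start site and by CpG number of the 300-base promoter; left, regions higher in the second pair, right, in the first. At the start site, second-pair regions covered 10.3% of promoters with 0 to 5 CpGs, 12.2% with 6 to 20 and 7.71% with 21 or more.

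The promoters were searched for 2 motifs of factors known to recruit G9a-containing complexes. An E2F6-type motif (GCGGGAAA, either strand) was in 1.41% of all promoters, in 1.33% of those with a second-pair region alone and in 0.815% of those with a first-pair region alone. The E-box CACGTG, which reads the same on both strands, was in 7.84%, 6.59% and 6.14%. The letters were searched without mismatch in the 300 bases, and no other motif was searched. The E2F6-type counts were small, 34 of 2550 second-pair and 13 of 1595 first-pair promoters. Both motifs hold a CpG, and these promoters had medians of 9 and 8 CpGs, against 13 over all promoters. The part of CpG content in the motif shares was not tested.

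Gene by gene, 42.5% of all 21887 protein-coding genes had a second-pair region within 2500 bp of either end and 59.0% a first-pair region. With separated regions alone these were 29.6% and 38.1%. They were 48.6% and 54.8% without library 1 of the second pair. Counts in the gene lists below are read against these shares, and no list was tested. Short genes, whose windows overlap, were searched over less sequence than long ones. Since no transcript was measured, the gene lists describe loci, and the enrichment for cardiomyocytes could not be checked against expressed markers.

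Contractile genes lay below the shares of all genes for both kinds of region. Of 22 sarcomere genes, 4 (18.2%) had a second-pair region, 9 (40.9%) a first-pair region and 10 neither, against 26.9% of all genes with neither. Both myosin heavy chain genes of the heart, Myh6 and Myh7, had no listed region from end to end, and nor did Nppa and Nppb, the natriuretic peptide genes of the stressed heart. Among the few sarcomere genes with a second-pair region, Tnnt2, cardiac troponin T, had 39 and 77 against 766 and 191 over 1150 bp (chr1:135835701-135836850). The log2 difference was 3.02 (limma 2.78 ± 0.77 SE, adjusted p = 0.471). Myl7, the atrial regulatory light chain gene, had 230 and 320 against 835 and 478. Myl2, the ventricular one, had 44 and 360 against 734 and 409, so that the higher first-pair library came close to the lower second-pair one. First-pair regions lay at Myom2, which encodes an M-band protein (114 and 135 against 17 and 27) and at Tnnc1, cardiac troponin C (48 and 126 against 16 and 44).

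Fetal and stress genes showed both directions, with 9 (45.0%) of 20 near a second-pair region and 8 (40.0%) near a first-pair one. Ankrd1, a stress-induced ankyrin repeat protein gene of the sarcomere, had 157 and 212 against 1749 and 443 over 2350 bp (chr19:36120301-36122650). Its log2 difference was 2.56, and 1.26 without library 1 of the second pair. Tnni1, the fetal troponin I gene, had 446 and 672 against 1401 and 979. At Acta1, skeletal actin, which is re-expressed in hypertrophy, neighbouring regions went opposite ways: 308 and 305 against 78 and 132 over chr8:123891901-123892850, and 152 and 73 against 200 and 280 over the next 950 bp. Ccn2, a fibrosis-associated growth factor gene, also had a region of each kind, with 44 and 48 against 60 and 232 and, over a different region, 156 and 96 against 75 and 42.

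**Figure D5:**
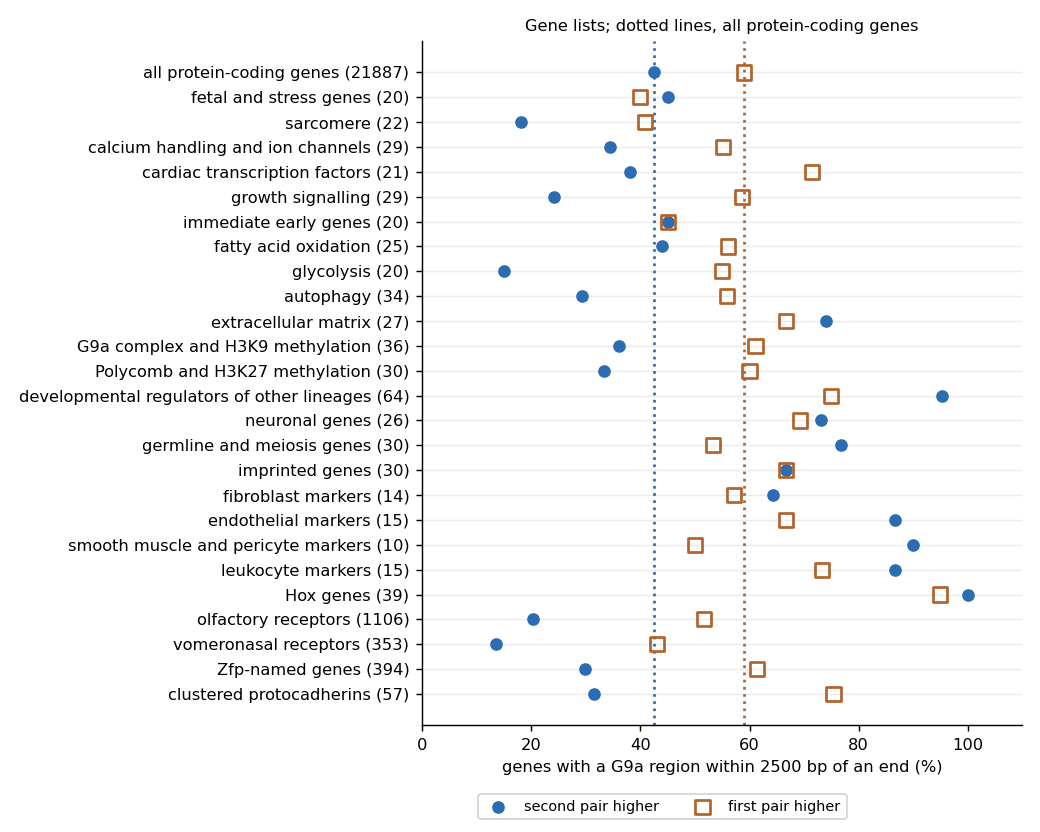
Percent of the genes of each list (number in parentheses) with a G9a region within 2500 bp of an end, higher in the second pair (filled circles) or in the first (open squares); dotted lines mark all protein-coding genes, 42.5% and 59.0%. Sarcomere and glycolysis genes lie left of the blue line, and developmental, endothelial and Hox genes right of it.

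Cardiac transcription factor genes had a first-pair region at 15 (71.4%) of 21 and a second-pair region at 8 (38.1%). Of the latter, the highest ranked by p in the authors' deposited table was at Gata5, 2450 bp with 309 and 270 against 1172 and 534. At Tbx5, a T-box gene of atrial and conduction identity, a second-pair region (113 and 223 against 359 and 381) and a first-pair region (341 and 232 against 59 and 175) lay near different ends. Myocd, the serum response factor coactivator gene, had 94 and 106 against 6 and 50. Mef2c, a factor of the hypertrophic programme, held 3 first-pair regions inside the gene and no second-pair one. The clearest had 185 and 226 against 2 and 171, a difference carried by library 1 of the second pair. Gata4 held 1 second-pair and 2 first-pair regions, all of 600 bp or less, the strongest with 70 and 159 against 20 and 56.

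At the main window around gene ends, growth signalling, calcium handling and ion channel genes lay below the share of all genes for second-pair regions. This depended on the window, as given at the end of this paragraph. Among 29 growth signalling genes 7 (24.1%) had a second-pair region and 17 (58.6%) a first-pair one, and with separated regions alone 2 and 14. The second-pair case ranked first by p in the authors' deposited table was Nfatc4, a calcineurin-responsive factor gene, with 131 and 87 against 478 and 318 (limma 1.86 ± 0.56 SE, adjusted p = 0.471). The catalytic subunit gene of calcineurin itself, Ppp3ca, went the other way with 220 and 217 against 26 and 85. Gnaq, the G protein subunit of hypertrophic receptors, had 82 and 95 against 10 and 17. Adra1b, an adrenergic receptor gene, had 192 and 245 against 5 and 117, and Il6st, the gp130 receptor gene, 212 and 154 against 11 and 112. In the last 2, library 2 of the second pair stood near the first pair. Without library 1 of the second pair 10 (34.5%) of the 29 genes had a second-pair region, against 48.6% of all genes, and 17 (58.6%) a first-pair one. Without library 2 of that pair 4 (13.8%) had a second-pair region, against 36.8% of all genes.

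Among 29 calcium handling and ion channel genes 10 (34.5%) had a second-pair and 16 (55.2%) a first-pair region. Cacna1h, a T-type calcium channel gene, had 382 and 522 against 1533 and 681 over 3850 bp. Kcnip2, an auxiliary subunit of the transient outward current, had 8 and 37 against 106 and 194. Kcnj5, a potassium channel gene of the muscarinic current, had 222 and 298 against 22 and 87, with the pairs well apart. Atp2a2, the calcium pump of the sarcoplasmic reticulum, had 1 region, with 152 and 83 against 18 and 69.

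Energy metabolism genes split. Of 25 fatty acid oxidation genes 11 (44.0%) had a second-pair region and 14 (56.0%) a first-pair one, both near the shares of all genes. Of 20 glycolysis genes 3 (15.0%) had a second-pair region and 11 (55.0%) a first-pair one. The former count was 5 (25%) without library 2 of the first pair and 3 without either library of the second. The 3 were Aldoc, an aldolase gene (143 and 239 against 637 and 484), Hk1, a hexokinase gene, and Ldha. Hk1 also had a first-pair region (184 and 212 against 96 and 77), as did Eno1, an enolase gene (166 and 288 against 79 and 98). Of 34 autophagy genes 10 (29.4%) and 19 (55.9%) had a second-pair and a first-pair region. Ranked first by p in the authors' deposited table were Ulk1, the initiating kinase gene (36 and 96 against 264 and 206), and, for the first pair, Atg13, its partner (156 and 256 against 20 and 105).

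At the gene of G9a itself, all listed regions were higher in the second pair. Ehmt2 held 3 of them and no first-pair region. The strongest, 4250 bp in the gene body (chr17:34904801-34909050), had 956 and 482 against 3000 and 1364, a log2 difference of 1.60 (limma 1.57 ± 0.69 SE, adjusted p = 0.471). The smallest, of 800 bp, had 117 and 108 against 92 and 235, which overlap. Ehmt1, the gene of GLP, was opposite, with 10 first-pair and 2 second-pair regions along the gene, for example 214 and 241 against 3 and 81 over 1000 bp (chr2:24836501-24837500). In 6 of its first-pair regions library 1 of the second pair was listed at 0. Wiz held 4 first-pair regions and none of the other kind, and in 3 of the 4 library 2 of the second pair lay between the values of the first pair, above 1 of them.

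Among 36 genes of G9a complexes and H3K9 methylation, 13 (36.1%) had a second-pair and 22 (61.1%) a first-pair region, near the shares of all genes. Ranked by p in the authors' deposited table, the leading second-pair regions were those of Dnmt3b, above, Dnmt3l, its germline cofactor gene (265 and 289 against 1066 and 624), Gfi1b, a repressor gene of blood cells (275 and 234 against 1052 and 503), and Ehmt2, with 227 and 458 against 1138 and 695 near an end. Setdb1, a gene of an enzyme of H3K9 methylation, had 223 and 265 against 61 and 126, and Uhrf1, a reader of hemimethylated DNA, 178 and 229 against 102 and 56. Of 30 Polycomb genes 10 (33.3%) had a second-pair region and 18 (60%) a first-pair one. Suz12, a core subunit of Polycomb repressive complex 2, had 115 and 223 against 22 and 35. Its partner Eed had 96 and 174 against 6 and 78. Ezh2, the catalytic subunit, held 6 first-pair and no second-pair regions, one of which was nearly empty in the second pair, with 321 and 120 against 0 and 1 over 800 bp (chr6:47582051-47582850). Pcgf1, of a variant Polycomb repressive complex 1, had 20 and 133 against 219 and 249.

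Genes of the germline, which G9a is known to silence, lay above the share of all genes for second-pair regions. Of 30 germline and meiosis genes, 23 (76.7%) had a second-pair region and 16 (53.3%) a first-pair one, and with separated regions alone 19 and 10. The same 23 genes had one without library 1 of the second pair, and 20 without library 2. Pou5f1, the pluripotency factor gene Oct4, had 377 and 371 against 1313 and 1011 over 3550 bp (chr17:35503551-35507100), with a limma log2 difference of 1.62 ± 0.52 SE (adjusted p = 0.471). Piwil1, a PIWI protein gene of the testis, had 96 and 289 against 735 and 643. Mov10l1, a helicase gene of the same pathway, had 191 and 157 against 942 and 353, and Tex101 107 and 117 against 449 and 479. List members were named from separated regions, so the pairs could not overlap at these genes. First-pair regions were at Tuba3a, a testis tubulin gene (197 and 169 against 50 and 42), and Brdt, a bromodomain gene of spermatocytes (444 and 315 against 210 and 130).

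Of 64 developmental regulators of other lineages 61 (95.3%) lay near a second-pair region, 48 (75%) near a first-pair one and 45 (70.3%) near both, against 28.4% of all genes near both. Myod1, the skeletal muscle determination factor gene, had 311 and 404 against 1038 and 856 over 3800 bp, and Neurod2 165 and 212 against 776 and 487. Pax1, a skeletal patterning gene, had 368 and 316 against 102 and 223 in a first-pair region. With separated regions alone the counts were 39 and 19. All 39 Hox genes had a second-pair and 37 a first-pair region, 26 and 20 with separated regions alone. Hoxb4 had 471 and 397 against 167 and 182. Hox genes share windows, so these are not independent loci.

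Of 26 neuronal genes 19 (73.1%) had a second-pair region near an end and 18 (69.2%) a first-pair one, both above the shares of all genes. These are long genes, with a median of 293028 bp against 17169 bp over all. Grin1, an NMDA receptor subunit gene, had 939 and 765 against 2146 and 2036 over 7000 bp, with the pairs well apart. Nefl, a neurofilament gene, had 195 and 561 against 767 and 1024. In the other direction, Gabrb1, a GABA-A receptor subunit gene, had 239 and 288 against 15 and 222, where library 2 of the second pair came close to the first pair.

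Imprinted genes had regions of both kinds at the same number, 20 (66.7%) of 30 each. On the distal part of chromosome 7, the neighbours Slc22a18 and Phlda2 had 119 and 100 against 665 and 206, and 115 and 324 against 736 and 494. Igf2, a fetal growth factor gene of the same chromosome, had 547 and 571 against 1701 and 583 over 4500 bp, a difference that was mostly that of library 1 of the second pair. Magel2, of the Prader-Willi region, had 405 and 484 against 1119 and 916. Sgce had 120 and 182 against 32 and 44, and Ube3a 312 and 60 against 37 and 36, where library 1 of the first pair stood alone.

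Of 27 extracellular matrix genes 20 (74.1%) had a second-pair region and 18 (66.7%) a first-pair one, and with separated regions alone 17 and 10. Mmp9, a gelatinase gene, had 445 and 964 against 1995 and 1839 over 7100 bp (chr2:164953201-164960300). Eln, elastin, had 464 and 577 against 1524 and 1208 over 4300 bp, and Col6a1, a collagen VI chain gene, 200 and 314 against 1189 and 549. The leading first-pair regions at matrix genes were narrower: Timp3, a protease inhibitor gene, had 145 and 81 against 0 and 36, and Col6a2 282 and 313 against 49 and 203.

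Marker genes of the other cells of the heart also lay above the share of all genes for second-pair regions. The counts were 9 (64.3%) of 14 fibroblast, 13 (86.7%) of 15 endothelial, 9 (90%) of 10 smooth muscle and pericyte and 13 (86.7%) of 15 leukocyte markers. First-pair regions were at 8, 10, 5 and 11 of them, and the 5 smooth muscle and pericyte genes became 8 without library 2 of the second pair. The leukocyte markers C1qa, C1qb and C1qc shared a second-pair region of 11950 bp, so they are not independent loci. Egfl7, an endothelial secreted factor gene, had 389 and 448 against 1487 and 679 over 4200 bp, and Eng, the endoglin gene, 595 and 810 against 1459 and 1268. Laptm5, a lysosomal protein gene of blood cells, had 331 and 308 against 1297 and 573, and Notch3, of smooth muscle, 103 and 244 against 373 and 298. Among fibroblast genes Col1a1 had 427 and 373 against 852 and 693, while Mfap5, a microfibril protein gene, had 133 and 123 against 0 and 1. Whether the share of such cells differed between the preparations was not tested, since no transcripts were measured.

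Receptor genes in tandem arrays lay below the shares of all genes for both kinds of region, and further below for the second pair. Of 1106 olfactory receptor genes 225 (20.3%) had a second-pair and 572 (51.7%) a first-pair region, and of 353 vomeronasal receptor genes 48 (13.6%) and 152 (43.1%). Neither kind was near 438 (39.6%) and 183 (51.8%) of them, against 26.9% of all genes. Olfr1061 had 206 and 229 against 6 and 24, and Vmn2r88 147 and 165 against 5 and 3. In contrast, Olfr544 had 105 and 95 against 545 and 299. Of 394 genes with Zfp names 118 (29.9%) had a second-pair and 242 (61.4%) a first-pair region, and of 57 clustered protocadherin genes 18 (31.6%) and 43 (75.4%). Pcdha9 had 322 and 216 against 46 and 94. Pcdha6 had 497 and 454 against 86 and 327, so library 2 of the second pair stood closer to the first pair than to its partner. Members of the receptor and protocadherin families resemble each other, and reads that fit several copies may have been placed by the authors' mapping in any of them. The Zfp genes were grouped by name alone and include single, dispersed genes.

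Leaving out library 1 of the second pair moved most lists as it moved all genes. Second-pair regions were then near 6 sarcomere, 9 fetal and stress, 9 cardiac transcription factor and 13 calcium handling and ion channel genes, and first-pair regions near 8, 9, 14 and 13. For fatty acid oxidation the counts were 13 and 13, for autophagy 15 and 16, for G9a complexes and H3K9 methylation 15 and 20, and for Polycomb 10 and 18. Developmental regulators had 63 and 41, Hox genes 39 and 32, neuronal genes 19 and 16, imprinted genes 21 and 19 and extracellular matrix genes 20 and 18. The fibroblast, endothelial, smooth muscle and leukocyte markers had 9, 14, 9 and 13 genes with a second-pair region and 7, 9, 4 and 13 with a first-pair one. Olfactory receptor genes had 271 and 541, vomeronasal receptor genes 60 and 143, Zfp genes 152 and 217 and clustered protocadherin genes 25 and 37. Leaving out library 2 of the second pair instead turned the lean of some lists to the first pair. Developmental regulators then had 54 and 63, Hox genes 35 and 38 and neuronal genes 15 and 20. Extracellular matrix genes had 20 and 19 and endothelial markers 12 and 11. All genes were at 36.8% and 63.0% in that setting.

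Listed regions at most 50 bp apart differed in direction more often than they shared it. Of 26277 neighbours separated by at most 50 bp, 37.9% shared their direction, whereas 63.7% did at 51 to 1000 bp, 61.0% at 1 to 10 kb and 65.8% at 10 to 100 kb. The share would be 50.6% if the direction of each region were independent of its neighbour. That value takes no account of how the authors' caller, which is not known, joined or split adjoining stretches. The part of that step was not tested. Acta1, above, is such a case, with opposite regions that abut.

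Against the other tables, whose pairs are also unnamed, a larger share of G9a regions lay on H3K27me3 regions than on H3K9me2 regions. Of second-pair G9a regions 52.3% overlapped a second-pair H3K27me3 region by at least 1 bp, which was 30.8% of the latter, and 23.2% a first-pair one (12.4% of those). For H3K9me2 it was 10.9% with second-pair regions (17.3% of those) and 9.97% with first-pair regions (12.6%). Among second-pair G9a regions of 2000 bp or more, 89.7% overlapped a second-pair H3K27me3 region and 31.2% a first-pair one, while 14.0% overlapped a second-pair and 17.2% a first-pair H3K9me2 region. Of the 600 first-pair G9a regions of that width, 59.5% overlapped a second-pair and 55.3% a first-pair H3K27me3 region. For H3K9me2 these were 24.2% and 41.7%. Of first-pair G9a regions 26.1% lay on first-pair and 23.4% on second-pair H3K27me3 regions (17.6% and 20.2% of those), and 12.2% on first-pair and 8.04% on second-pair H3K9me2 regions (19.1% and 15.8%). The H3K27me3 table also holds more and wider regions (median width 800 bp, against 600 bp for H3K9me2). Grouped by the marks they touched in any direction, G9a regions were higher in the second pair at 32.0% of 145212 with neither mark and at 34.5% of 27047 with H3K9me2 only. The share was 55.2% of 166271 with H3K27me3 only and 50.9% of 49894 with both. The 4 shares were 37.8%, 39.4%, 56.9% and 53.5% without library 1 of the second pair, and without library 2 of that pair 27.8%, 30.5%, 51% and 47.0%. The median widths of the G9a regions in these 4 classes were 550, 600, 700 and 750 bp. Direction also went with width, above, and the part of width in these shares was not tested.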

How the data were processed

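Chromatin immunoprecipitation libraries of cardiomyocyte-enriched cells, 2 for each antibody and condition and 1 input per condition, were built from a NuGEN Ovation Ultralow kit, per the labels' protocols. The submitters' processing notes name BWA 0.7.10-r789, SAMtools 1.1 and build mm10. The caller, the scaling, the input correction and the filter behind the values were not given in the sources used here. Per antibody, the authors deposited 1 headerless table with 4 whole-number values and a -log10 p per region. Depth is unknown, and the values were not treated as raw read counts, so no count model was fitted.

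Direction came from log2((mean of second pair + 1)/(mean of first pair + 1)). limma 3.58.1 (R 4.3.3, mean-variance trend) was fitted to log2(value + 1) of all 388424 regions at an adjusted p of 0.05 (such a difference understates the change of low regions). Tested on simulated data of this comparison and its 388424 regions, it recovered 3 of 100 regions changed 4-fold and 42 of 100 changed 16-fold. Every simulated region was given the median measured spread, so spreads that differ between regions were not simulated. Genes and promoters came from RefSeq GRCm38.p6. Of the symbols of 25 gene lists, 5 were not in the gene table. Regions were named by rule: the 8 smallest deposited p-values per direction and place among separated regions with a mean of at least 100, the 5 widest per direction, up to 4 members per list and direction, the 10 genes per direction with the most separated regions, the 5 fullest windows of one direction, and 12 cardiac and chromatin genes. List members were taken from separated regions near a gene end, so the pairs could not overlap there. The members and lists were chosen with earlier results of these data known. Results on withheld items are not reported here.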

Additional observations from a re-analysis of the deposited data

How the results depend on the processing

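No limma call was made under any of the 8 alternatives, where the smallest adjusted p ran from 0.0538 (without library 2 of the second pair) to 0.636 (without library 1 of the second pair). No paired analysis was possible because the values carry no replicate number. Leaving out a library moved the number of second-pair regions to between 156875 and 186823. Of regions with a deposited p of at most 1e-5, 92854 were higher in the second pair and 100323 in the first. With a mean value of at least 100 these were 88272 and 59367, of which 96177 were separated, and the lean to the first pair turned. Near gene ends, 6845 second-pair and 6949 first-pair regions lay within 1000 bp, 27733 and 28757 within 5000 bp, and 8945 and 8493 were separated; in gene bodies 32934 and 44341 were separated. Genes with a first-pair region numbered 8332 with separated regions, 7485 at a deposited p of at most 1e-5 and 7979 with windows of 1000 bp. The alternatives for wide regions, gene number, gene length, density, marks and promoters were chosen after seeing the data: leaving out a library gave 10991 to 11135 second-pair regions of 2000 bp or more, and without library 1 of the second pair 2877 promoters lay in second-pair and 1404 in first-pair regions. Separated regions overlapped 1509 promoters in the second pair and 837 in the first. In 250 kb windows, 6 held 90% second-pair and 397 held 90% first-pair regions, against 0 and 11 of 1 Mb.

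With at least 50% of the G9a region covered, 12121 and 8210 second-pair G9a regions lay on second-pair and first-pair H3K9me2 regions, 11066 first-pair G9a regions on second-pair H3K9me2 regions and 21872 second-pair G9a regions on first-pair H3K27me3 regions. With separated regions in both tables, second-pair G9a regions lay on H3K9me2 regions at 8559 (second) and 7783 (first) and on H3K27me3 regions at 51600 and 16226. First-pair ones lay on H3K9me2 regions at 6885 (second) and 11556 (first) and on H3K27me3 regions at 22738 and 24093. Fewer regions or a stricter overlap can only lower these counts, and what else lies behind the changes was not tested.

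Of 269 regions named or eligible for naming, 261 kept their sign under every alternative. These were a library left out, 10 added in place of 1, and values scaled by median ratios. Most of the regions were taken only where separated, and there leaving out a library cannot turn the sign. Adding 10 cannot turn it anywhere, so the count largely restates the naming rule. The regions that turned were all not separated. Leaving out single libraries, the log2 difference ran from -2.41 to 0.08 at Zfp978 (turned without library 1 of the second pair), from -0.29 to 1.06 at the smallest Ehmt2 region (library 2 of the second), from -6.37 to 0.56 at the Ehmt1 end (0.31 without library 1 of the second, 0.56 without library 2 of the first) and from -0.29 to 1.93 at a further Ehmt1 region (library 2 of the second). It ran from -6.79 to 0.13 at 1 Ezh2 region (library 1 of the second), from -1.44 to 0.11 at 1 Mef2c region (library 2 of the first), and from -0.51 to 1.89 and -2.89 to 0.40 at a pair of Gata4 regions (library 2 of the second and of the first). Depth is unknown, and 2 libraries per pair set the spread.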

Other observations

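At Kif26a, the log2 difference of the leading gene-body region was 1.32 without library 1 of the second pair, and at Elfn1 it was 1.00. All 6 G9a regions whose p is 0 in the authors' deposited table were higher in the second pair. Absolute log2 differences over 2 were instead more numerous in the first pair (21110 against 8704).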
